A study of Mus musculus with 120 samples.

Results

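Mfn1, Mfn2, Opa1, Dnm1l, Fis1, Mff, Pink1, Bnip3, Bnip3l and Fundc1, mouse genes for the fusion, the division and the selective removal of mitochondria, are described here across strain, training and tissue. The set was chosen by name and function, and its 10 genes were taken from the 53656 genes with a row in the count tables of both tissues. All 10 passed the filter on low counts in soleus, in heart and over both tissues. RNA of soleus muscle and of heart was sequenced in mice that carry a mitochondrial defect, all on a C57BL/6EiJ background with an intact Nnt gene.

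Mice labelled ANT1-/- have no Slc25a4, the nuclear gene for the ADP/ATP carrier of heart and muscle (the ANT1 strain). The other 3 strains carry a mutation of the mitochondrial DNA (mtDNA) and are named the mtDNA strains: ND5S204F at position 12352, ND6P25L at position 13997, both in complex I genes, and CO1V421A at position 6589 in a complex IV gene. From 16 weeks of age, mice of each strain either ran for 45 min every other day at 50% of their maximal capacity for 8 weeks (exercised) or were only handled (non-exercised). Tissue was taken 6 days after the last session. This gave 16 groups of 6 libraries, 48 libraries per tissue. The labels do not say how the mutations were introduced or whether a group shares litters, and each mutation is represented by a single strain. The control strain without a mutation is not analysed here, so that each strain is described only against the other mutant strains.

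Mitochondria form a network that is joined by fusion and cut by fission. MFN1 and MFN2, the mitofusins, tether and fuse outer membranes, and OPA1 fuses inner membranes and shapes cristae. DRP1, the product of Dnm1l, is a cytosolic GTPase that constricts the organelle after it is recruited by adaptors such as MFF, while FIS1 is an outer membrane protein linked to fission. Damaged mitochondria are removed by mitophagy, either through PINK1, a kinase that marks organelles with a low membrane potential for parkin, or through outer membrane receptors that bind LC3 directly: BNIP3, NIX (Bnip3l) and FUNDC1. BNIP3 is a classic target of hypoxia-inducible factors, and NIX clears mitochondria from maturing red blood cells. In slow, oxidative muscle such as soleus and in the heart these genes serve a dense mitochondrial network.

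Mfn1 and Fis1 RNA was higher in ANT1 soleus on the count scale, with no overlap of the resting groups. The share of all genes without such overlap is not given here. Bnip3 RNA was lower in ANT1 soleus and differed most between tissues. The promoter windows of these 3 members are printed because the results below turn on them. Each runs 5′ to 3′ on the strand of the gene and ends at the base before the annotated start (RefSeq, GRCm38.p6). The windows are chr7:138909507-138909756 on the minus strand for Bnip3, chr5:136953025-136953274 on the plus strand for Fis1 and chr3:32529232-32529442 on the plus strand for Mfn1. Capitals mark CACGTG in Bnip3 and CCGGAAG in Fis1.
Bnip3: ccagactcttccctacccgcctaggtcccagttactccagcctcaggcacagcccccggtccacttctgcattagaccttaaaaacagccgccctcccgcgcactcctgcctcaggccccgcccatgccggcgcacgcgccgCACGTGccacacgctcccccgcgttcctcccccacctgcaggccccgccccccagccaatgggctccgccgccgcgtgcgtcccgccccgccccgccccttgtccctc
Fis1: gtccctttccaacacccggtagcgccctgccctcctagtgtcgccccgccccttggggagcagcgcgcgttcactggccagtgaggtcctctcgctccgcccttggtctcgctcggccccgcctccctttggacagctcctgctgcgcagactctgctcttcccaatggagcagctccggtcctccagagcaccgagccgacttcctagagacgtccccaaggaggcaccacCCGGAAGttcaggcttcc
Mfn1: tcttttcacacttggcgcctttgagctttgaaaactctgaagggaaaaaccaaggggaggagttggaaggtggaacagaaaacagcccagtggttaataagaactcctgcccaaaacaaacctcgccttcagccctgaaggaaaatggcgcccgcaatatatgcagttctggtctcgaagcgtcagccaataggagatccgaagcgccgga

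A promoter entry was matched for 9 members, all except Bnip3l. Both strands of the 250 bases upstream of each annotated start were searched for 6 motifs. Some of these starts lie inside the gene spans given below, as for Fundc1. Each motif was set against its share among all 32851 windows of that length. The E-box core, CACGTG, is held by 6.02% of windows and occurs in Bnip3, starting 108 bases upstream. ACGTG, the only form of the hypoxia element core searched, overlaps the E-box core and is held by 16.6% of windows. Its 2 matches in Bnip3 lie within the E-box, on opposite strands, and 1 of the 3 Mfn2 windows has 1 match, 39 bases upstream of an annotated start that lies inside the gene span given below. The ETS core, CCGGAAG, is held by 6.91% of windows and starts 18 bases upstream of Fis1. The Mfn1 window of 250 bases also holds 1 match of it, which begins in the last bases printed and runs past the end of the stretch. Part of the NRF1 site, CATGCGC, is held by 3.24% of windows and has 3 overlapping matches in the Opa1 window. They start 59, 56 and 53 bases upstream of an annotated start that lies inside the gene span given below. Each match crosses the start of that span or begins at it. The motif of estrogen-related receptors, AAGGTCA, held by 4.08% of windows, was not matched in any window of these members, of which Mff, Fis1 and Dnm1l have 2 each, Mfn2 has 3 and the others have 1. Neither was the FoxO core, GTAAACA, held by 3.17%. These matches describe letters only, and binding was not measured.

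The genes lie on 8 chromosomes in GRCm38.p6, and counts refer to the whole annotated gene. Mfn1 spans chr3:32529443-32579225, Mfn2 chr4:147873586-147904909, Opa1 chr16:29579281-29663127, Dnm1l chr16:16312228-16359038 and Fis1 chr5:136953275-136966234. Mff spans chr1:82724890-82752390, Pink1 chr4:138313409-138326296, Bnip3 chr7:138890836-138909506, Bnip3l chr14:66985238-67008877 and Fundc1 chrX:17519967-17572329. Exons of Dnm1l, Mff and Bnip3 overlap those of an annotated transcript on the opposite strand by 243, 195 and 504 bases, and the sources used here do not say that strand was used in counting. A pseudogene of Bnip3l is annotated (Bnip3l-ps). Exons of Pink1 overlap the annotated microRNA genes Gm27646 and Mir7019 on its own strand, by 110 and 69 bases. The values of all these members are uncertain to that extent.

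Libraries held 10.2 M to 20.7 M counts in soleus and 19.7 M to 26.5 M in heart, and the lowest count of any member was 157 (Fundc1 in a soleus library). Slc25a4, deleted in the ANT1 strain, measured, in counts-per-million (CPM), at most 22.1 in non-exercised ANT1 soleus and at least 2170 in the mtDNA strains. It did not overlap between ANT1 and the other strains in any arm or tissue. Summed fast fibre markers reached a median of 22206 CPM in soleus and 3.01 CPM in heart, and summed cardiac muscle markers 2723 and 45157 CPM, as the labelled tissues imply. Hearts differed in composition: summed atrial markers were 25.2 to 931 CPM in 26 hearts and 1673 to 34440 CPM in the other 22, split at a limit of 10 on the log2 scale that was set after the data were seen. The low-atrial hearts were spread unevenly, 3 in each ANT1 arm, 6 and 5 in CO1, 2 and 2 in ND5, 4 and 1 in ND6 (non-exercised, then exercised). A group of 4 hearts (ND5 mice B80 and B71, ND6 mice I58 and I63) carried 60669 to 130828 CPM of summed red cell markers, against 783 to 35577 CPM in the others. Mouse B80 is labelled exercised in the soleus table and non-exercised in the heart table. Its heart had 4608 CPM of cardiac muscle markers, the lowest of all hearts. In bulk samples, fewer cells of a type and less RNA per cell cannot be told apart.

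Levels per length were compared on the authors' FPKM values within each tissue, as the mean of the 8 group means. In soleus, Pink1 at 392 FPKM and Bnip3 at 387 FPKM were the most abundant members. They could not be ranked: Pink1 exceeded Bnip3 in 23 of 48 libraries. Mfn2 at 152 FPKM, Mfn1 at 134 FPKM and Fis1 at 128 FPKM followed. Mfn2 exceeded Mfn1 in 38 libraries, and Mfn1 exceeded Fis1 in 28, close to an even split. Mff at 72 FPKM was below Fis1 in all 48 libraries. Bnip3l had 39.9 FPKM, Opa1 31.3 FPKM and Dnm1l 29.4 FPKM, and Opa1 exceeded Dnm1l in 30 of 48. Fundc1 was lowest at 12.4 FPKM, below Dnm1l in every soleus library.

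In heart Pink1 was first and Fundc1 last, and Bnip3 stood near Mfn1. Pink1 at 241 FPKM exceeded Mfn2 at 174 FPKM in all 48 hearts, and Mfn2 exceeded Mfn1 at 134 FPKM in 47. Mfn1 and Bnip3, at 131 FPKM, did not separate (26 of 48), nor did Fis1 at 94.2 FPKM and Mff at 90.3 FPKM (28 of 48). Bnip3l at 60.6, Opa1 at 35.0, Dnm1l at 33.1 and Fundc1 at 13.5 FPKM completed the order. The FPKM tables of the tissues were scaled separately, so these orders are not compared level by level.

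In non-exercised soleus, the 3 fusion genes and the fission genes Dnm1l and Fis1 were higher in ANT1 than in the mean of the mtDNA strains on the count scale, and the mitophagy receptor Bnip3 was lower. On the FPKM scale each of the 5 higher genes had a difference below 0, and all genes together had a median difference of -0.65. There, with limma, 9 members were called lower, all but Mfn1, in a fit that called 11580 genes. Relative to that median, the 6 members called on counts kept the sign of their count difference. Mfn1 moved most, by 1.53-fold on counts. Mff, Pink1, Bnip3l and Fundc1 did not pass the test. So 6 of 10 members were called at an adjusted p under 0.05, against 47.7% of the 13935 genes tested, a background close to the members' own share. The median log2 difference was 0.17 over the members and -0.04 over all genes tested.

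Mfn1 measured 356 CPM at the lowest, 469 at the median and 508 at the highest in the 6 ANT1 muscles, and 206, 309 and 350 CPM in the 18 muscles of the mtDNA strains. Every ANT1 library was above every mtDNA library, and the share of all genes that separated in this way is not given here. The log2 difference was 0.61 (SE 0.088, adjusted p = 1.55e-07 by edgeR's quasi-likelihood test with Benjamini-Hochberg adjustment, used throughout), and -0.03 on the FPKM scale, which is 0.62 above that scale's median of all genes. Mfn2, the mitofusin that also tethers mitochondria to the endoplasmic reticulum, measured 455, 722 and 776 CPM in ANT1 and 410, 592 and 696 CPM in the mtDNA strains. The groups overlapped, with 4 of 6 ANT1 libraries above the highest mtDNA library. Its log2 difference was 0.24 (SE 0.096, adjusted p = 0.0385), or 1.18-fold, and -0.44 on the FPKM scale. The Mfn2 call ended in 9 of 24 refits that each left out a library: without ANT1 mice A58, A88, A4 or A18, ND5 mice B70, B19 or B85, ND6 mouse I85 or CO1 mouse E98, with adjusted p up to 0.10 (without A58).

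Opa1, the inner membrane fusion GTPase, measured 108, 171 and 207 CPM in ANT1 and 92.9, 146 and 166 CPM in the mtDNA strains, again with overlap and 3 of 6 libraries above. The log2 difference was 0.27 (SE 0.10, adjusted p = 0.0284), and -0.47 on the FPKM scale. Its call ended without A58, A88, A4 or B70, with adjusted p up to 0.112 (without A88). The lowest ANT1 library for all of Mfn1, Mfn2 and Opa1 was that of mouse A82, and without it the differences were 0.34 for Mfn2 (adjusted p = 0.0028) and 0.38 for Opa1 (adjusted p = 0.0019).

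Of the fission genes, Dnm1l measured 91.8, 121 and 134 CPM in ANT1 and 90.8, 99.8 and 110 CPM in the mtDNA strains, with 4 of 6 ANT1 libraries above the highest of the others. The log2 difference was 0.21 (SE 0.065, adjusted p = 0.0062), and -0.40 on the FPKM scale. Fis1 measured 71.8, 76.2 and 89.0 CPM in ANT1 and 54.4, 63.3 and 69.9 CPM in the mtDNA strains. These groups did not overlap, and the share of all genes without overlap is not given here. Its log2 difference was 0.30 (SE 0.053, adjusted p = 7.45e-06), and -0.37 on the FPKM scale. Mff, the main adaptor of DRP1, measured 81.9, 91.2 and 101 CPM against 80.4, 87.8 and 98.7 CPM, nearly the same range, and its difference was 0.06 (adjusted p = 0.22).

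Among the mitophagy genes, Bnip3 measured 370, 463 and 503 CPM in ANT1 and 404, 586 and 663 CPM in the mtDNA strains. All 18 mtDNA libraries were above the lowest ANT1 library, and 3 were below its highest. Its log2 difference was -0.33 (SE 0.074, adjusted p = 0.000252), a level 20.7% lower, and -0.995 on the FPKM scale, or -0.35 relative to that scale's median. Pink1 had the same median in both groups, 836 CPM, with 693 to 911 CPM in ANT1 and 480 to 1063 CPM in the others (difference 0.07, adjusted p = 0.58). Bnip3l at 51.5 to 55.8 CPM against 43.8 to 62.4 CPM and Fundc1 at 18.6 to 27.6 CPM against 15.1 to 23.2 CPM overlapped widely. Their differences were -0.01 and 0.12 (adjusted p = 0.86 and 0.17).

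**Figure D1:**
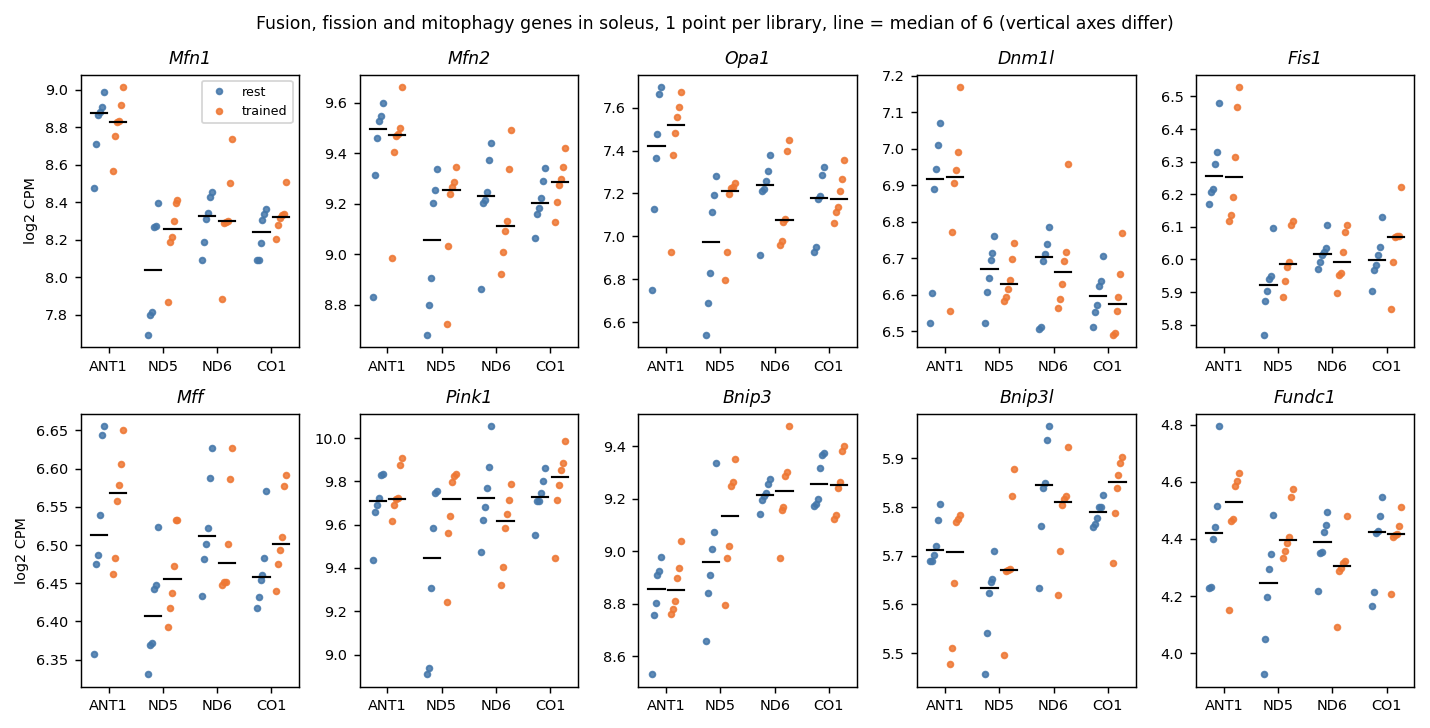
Log2 CPM of each member in the 48 soleus libraries, by strain on the horizontal axis, with non-exercised libraries in blue, exercised in orange, a point per library and a line at the median of 6; vertical axes differ between panels. Among non-exercised libraries, the ANT1 points of Mfn1 and Fis1 sit above those of the other strains, and those of Bnip3 sit low. These are count-scale levels, and on the FPKM scale the resting ANT1 differences of Mfn1 and Fis1 were -0.03 and -0.37.

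Relative to the shifted centre of the FPKM scale, the 5 higher members kept their order of size only in part: Mfn1 stood 0.62, Fis1 0.28, Dnm1l 0.25, Mfn2 0.21 and Opa1 0.18 above the median of all genes. Transcripts of the mtDNA itself took a median of 37.4% of counts in non-exercised ANT1 soleus (35.8% to 47.6%) and 15.6% to 20.6% as group medians in the mtDNA strains. Leaving mtDNA-encoded genes out before scaling the counts gave the same number of member calls. Their part in the gap between the scales was not tested.

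Markers of other cells moved with these groups. In ANT1 soleus 4 of 5 fibroblast markers were lower (median log2 difference -2.16), as were 6 of 6 tendon markers (-1.54) and 4 of 5 macrophage markers (-0.98), while 5 of 5 red cell markers were higher (0.85). Of the muscle fibre markers, 4 of 8 fast fibre genes were lower and 2 higher (median -0.83), and 5 of 6 slow fibre genes were lower and 1 higher (-0.31). Summed fibroblast markers ran from 217 to 495 CPM in ANT1, 742 to 3270 CPM in ND5, 323 to 745 CPM in ND6 and 395 to 1539 CPM in CO1, and no fibroblast marker was at 0. With the summed fibroblast markers as a covariate, a fit added after the data were seen, Mfn1 kept 0.33 (adjusted p = 0.00144), Fis1 0.32 (adjusted p = 0.000105) and Bnip3 -0.46 (adjusted p = 2.6e-05). The calls of Mfn2 (-0.04), Opa1 (0.02) and Dnm1l (0.15) ended in that fit, and Pink1 was called lower (-0.23, adjusted p = 0.036). Mfn2 also lost its call without the filter on low counts (adjusted p = 0.0713) and in the non-exercised libraries alone (adjusted p = 0.0569), and Opa1 in the latter (adjusted p = 0.0526). The part of connective tissue in the ANT1 differences was not tested beyond this.

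In exercised mice, Mfn1, Opa1, Dnm1l and Fis1 were higher in ANT1 soleus on the count scale and Bnip3 was lower, 5 of 10 members against 43.5% of the genes tested. On the FPKM scale Opa1, Dnm1l and Fis1 had differences of -0.31, -0.27 and -0.28, with a median of all genes of -0.54. There 9 members were called lower, in a fit that called 10810 genes, while Mfn1 kept its sign at 0.09. This arm consists of other mice than the resting arm, and both arms belong to the same 4 strains.

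Exercised Mfn1 measured 379, 455 and 518 CPM (lowest, median and highest) in ANT1 and 233, 315 and 426 CPM in the mtDNA strains, which overlapped. The log2 difference was 0.52 (SE 0.088, adjusted p = 5.8e-06). Opa1 measured 121, 183 and 204 CPM against 111, 144 and 175 CPM, a difference of 0.30 (SE 0.10, adjusted p = 0.0174) that lost its call without ANT1 mouse A13 or A17 (adjusted p up to 0.068). Dnm1l measured 94.0, 121 and 144 CPM against 89.8, 98.5 and 124 CPM, a difference of 0.26 (SE 0.065, adjusted p = 0.0013). Both genes overlapped between the groups, with higher medians in ANT1 and FPKM differences of the opposite sign.

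Fis1 measured 69.3, 76.2 and 92.2 CPM in exercised ANT1 and 57.4, 64.2 and 74.5 CPM in the mtDNA strains. Its difference was 0.28 (SE 0.053, adjusted p = 2.55e-05), against -0.28 on the FPKM scale. Bnip3 measured 433, 463 and 526 CPM against 444, 607 and 712 CPM, a difference of -0.33 (SE 0.074, adjusted p = 0.000295). The ranges of both genes overlapped. Mfn2, at 506, 710 and 811 CPM against 422, 611 and 719 CPM, missed the threshold (0.22, adjusted p = 0.056) and passed it in 5 of 24 refits, without A81, I50, I63, B80 or E76. Bnip3l at -0.11 (adjusted p = 0.075) passed in 2 (without I75 or B69), and Fundc1 passed in 1 (without A81). With the fibroblast covariate Mfn1 (0.27), Dnm1l (0.20), Fis1 (0.30) and Bnip3 (-0.44) were called and Opa1 (0.08) was not, where 4 of 5 fibroblast markers were lower in exercised ANT1 (median -2.30, 252 to 372 CPM against 310 to 2181 CPM). Of 8 fast fibre markers, 5 were lower and 1 was higher (median -1.48), and with these as a covariate the Opa1 difference was 0.47 (adjusted p = 0.000868).

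**Figure D2:**
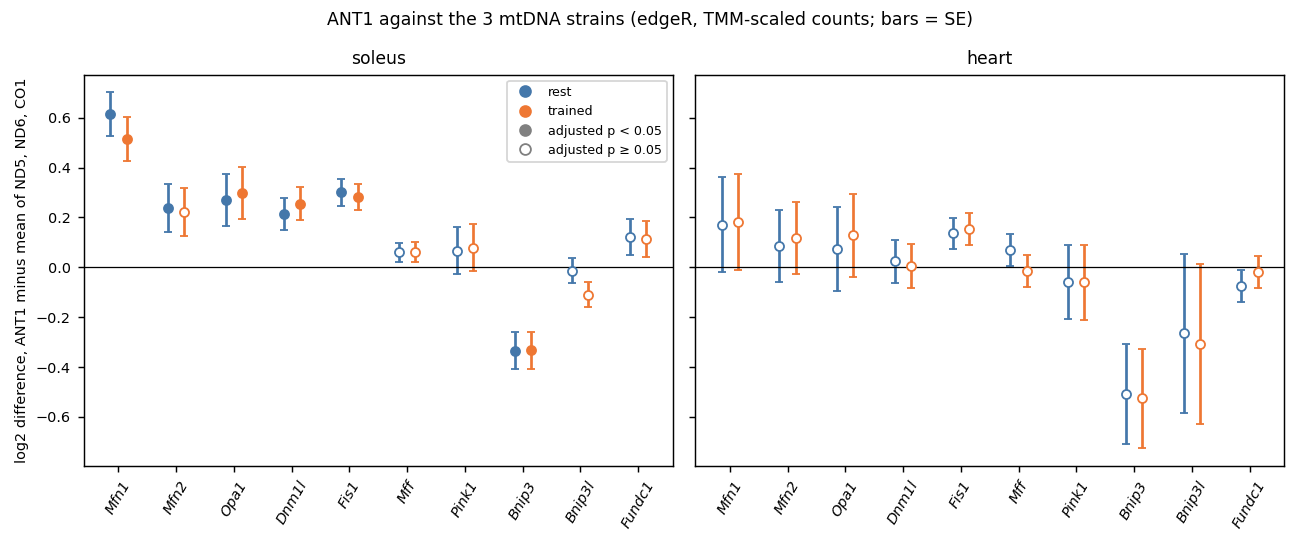
Log2 difference of each member between ANT1 and the mean of ND5, ND6 and CO1, with SE bars, by tissue and training arm; filled points passed an adjusted p under 0.05. In soleus Mfn1 lies at 0.61 and 0.52 and Bnip3 at -0.33 in both arms, while no heart point is filled. The values are on the count scale, and for Mfn1 (non-exercised), Mfn2, Opa1, Dnm1l and Fis1 the soleus differences were below 0 on the FPKM scale.

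Against single strains, Mfn1 and Fis1 were higher on the count scale in all 6 soleus comparisons. These comparisons share the ANT1 libraries. Against non-exercised ND5, where 49% of genes were called, 8 members were higher: Mfn1 by 0.75, Opa1 by 0.42, Fis1 by 0.36, Mfn2 by 0.35, Pink1 by 0.29, Fundc1 by 0.23, Dnm1l by 0.20 and Mff by 0.12. Bnip3 was not called there (-0.16, adjusted p = 0.13). Against ND6, with 30.8% of genes called, the members called were Mfn1 (0.51), Fis1 (0.26) and Bnip3 (-0.39). Against CO1, with 35.2% called, they were Mfn1 (0.58), Fis1 (0.28), Dnm1l (0.25) and Bnip3 (-0.45). ND5 was the strain with the lowest Mfn1 (206, 266 and 336 CPM), the lowest Pink1 (480, 701 and 865 CPM) and the highest summed fibroblast markers.

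In exercised soleus the members called against ND5 (39.1% of genes called) were Mfn1 (0.59), Opa1 (0.34), Fis1 (0.30), Dnm1l (0.26) and Bnip3 (-0.25). Those against ND6 (33.8%) were Mfn1 (0.47), Fis1 (0.30), Dnm1l (0.20) and Bnip3 (-0.36). Those against CO1 (30.9%) were Mfn1 (0.49), Dnm1l (0.31), Fis1 (0.25), Bnip3 (-0.39) and Bnip3l (-0.17). The higher calls are on the count scale throughout. Whether ANT1 differed more from one mtDNA strain than from another is the same question as whether those strains differed, which is taken up below.

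The wider machinery around the members moved in both directions. Of 72 other genes of fusion, fission, mitophagy, autophagosome and cristae, 70 were tested in non-exercised soleus, with 33 higher and 8 lower in ANT1 on the count scale and a median of 0.12. Over all genes tested 22.4% were higher and 25.4% lower. On the FPKM scale the counts were 6 higher and 54 lower, with 42 of 70 above that scale's median of all genes. Among fusion control genes 8 of 10 were higher on counts, led by the prohibitins Phb2 (0.86, adjusted p = 2.55e-18) and Phb (0.91), scaffolds of the inner membrane, and by the protease Parl (0.58). Of cristae (MICOS) genes 6 of 7 were higher, such as Chchd3 (0.77), Micos10 (0.78) and Micos13 (0.85). As context, 22 of 22 nuclear respiratory chain genes were higher, with a median of 0.79, and 16 were higher and 2 lower on the FPKM scale.

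Fission factors were mixed, with 4 of 10 higher, Mtfr1l (0.24) and Dnm2 (0.18) among them, and 2 lower. Gdap1, an outer membrane fission factor known from inherited neuropathy, had the largest difference of the 70 genes, and was lower (-1.73, SE 0.31, adjusted p = 1.24e-05). In the PINK1 and parkin arm 7 of 12 were higher, led by the mitochondrial motor adaptor Rhot2 (0.90) and the import proteins Tomm40 (0.52) and Tomm7 (0.56), and 1 was lower. Pink1 itself was not called. None of 5 other mitophagy receptors was higher, and Ambra1 was lower (-0.32).

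Autophagy adaptors had Optn higher (0.70) and Nbr1 lower (-0.18) of 6. Autophagosome genes had 5 of 13 higher and 1 lower, with Becn1 at 0.22, Gabarap at 0.25 and Atg13 at -0.41. Of 7 transcription factors linked to these genes, Esrra (0.62), a regulator of oxidative genes, was 1 of 2 higher, and Hif1a (-0.46), the hypoxia-inducible factor, and Foxo3 (-0.44) were the 2 lower. With the fibroblast covariate the list had 24 higher and 10 lower, and the respiratory chain 20 of 22 higher.

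Exercised soleus gave 30 higher and 11 lower of 70 on the count scale, where 21.1% of all genes were higher and 22.4% lower. The median was 0.11, and the FPKM scale gave 5 higher and 54 lower. Leading genes of the roles were Phb2 (0.79), Phb (0.81), Parl (0.52), Rhot2 (0.83), Tomm40 (0.40), Tomm7 (0.45), Optn (0.64), Chchd3 (0.64), Micos10 (0.66) and Micos13 (0.72), all higher on counts. All 7 MICOS genes were higher. Gdap1 (-2.13), Mief2 (-0.27), Atg13 (-0.34), Sqstm1 (-0.20), Tax1bp1 (-0.13), Tfeb (-0.31) and Hif1a (-0.34) were lower. Mtfr1l (0.25), Gabarap (0.26), Map1lc3b (0.21) and Esrra (0.45) were the other leading genes, all higher on counts.

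In heart no member was called between ANT1 and the mtDNA strains on the count scale. Of non-exercised hearts 0.916% of 15723 genes were called and 0 members, and 0 members were called by DESeq2. By edgeR 2 members and 1820 genes had an unadjusted p under 0.05. Of exercised hearts 4.78% of genes were called and 0 members, and again 0 members by DESeq2. An unadjusted p under 0.05 by edgeR was reached by 2 members and 3045 genes. On the FPKM scale, where the median of all genes was -0.25 and -0.26, limma called 3 members lower in each arm: Bnip3 (-0.78), Fundc1 (-0.34) and Dnm1l (-0.26) in non-exercised hearts and Bnip3 (-0.76), Mff (-0.32) and Dnm1l (-0.27) in exercised hearts. Those FPKM fits called 1333 genes in non-exercised and 1798 genes in exercised hearts. On the count scale the 95% intervals of the members' differences lay between -0.90 and 0.55 in non-exercised hearts. In exercised hearts they lay between -0.93 and 0.56. Mfn1 had the highest upper bounds, 0.55 and 0.56, and its soleus differences were 0.61 at rest, above the heart bound, and 0.52 after training, below it.

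Bnip3 was furthest from 0. It measured 108, 150 and 186 CPM in non-exercised ANT1 hearts and 101, 211 and 377 CPM in the mtDNA strains, with full overlap. Its difference was -0.51 (SE 0.20, adjusted p = 0.28), and -0.53 (SE 0.20, adjusted p = 0.12) in exercised hearts. Fis1, at 47.9, 52.7 and 57.2 CPM against 41.9, 47.7 and 54.9 CPM, differed by 0.14 (adjusted p = 0.39), and by 0.15 (adjusted p = 0.16) in exercised hearts, where it passed the threshold without ND6 mouse I4 (0.18, adjusted p = 0.031). Mfn1 measured 253, 378 and 434 CPM against 56.9, 347 and 422 CPM and differed by 0.17. The lowest of these, 56.9 CPM, was the ND5 heart of B80.

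Single strains gave 1 call in heart. Bnip3 was lower in non-exercised ANT1 than in CO1 hearts, at 108 to 186 CPM against 199 to 377 CPM. The difference was -0.98 (SE 0.24, adjusted p = 0.048), where 0.413% of genes were called. Summed atrial markers were under the limit in 3 of 6 of these ANT1 hearts and in 6 of 6 CO1 hearts, and with atrial markers as a covariate the difference was -0.83 (adjusted p = 0.070). The call also ended with red cell markers as a covariate (-0.82, adjusted p = 0.155) and without the filter on low counts (-1.03, adjusted p = 0.0525). Among low-atrial hearts only it was -0.92 (adjusted p = 0.024). No member was called in non-exercised ANT1 hearts against ND5 (4.68% of genes called) or ND6 (0.242%), or in exercised ANT1 hearts against ND5 (1.91%), ND6 (2.75%) or CO1 (1.3%).

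Subsets of hearts changed some exercised comparisons. Among the low-atrial hearts, ND6 is represented by mouse I63 alone and is assumed to vary like the other groups. There the ANT1 differences were 0.30 for Mfn1, 0.22 for Mfn2 and -0.80 for Bnip3l. I63 is 1 of the 4 hearts with the most red cell RNA, and without those 4 the exercised Bnip3l difference was 0.01. With atrial markers as a covariate Bnip3 was called (-0.55, adjusted p = 0.046), and with red cell markers Bnip3l was (-0.37, adjusted p = 0.0496). The part of atrial tissue and red cells was not tested beyond these fits. On the wider list 0 of 69 genes were called in non-exercised hearts and 4 in exercised hearts, where 3.45% of all genes were higher and 1.32% lower. All 4 were higher: Micos13 (0.36), Map1lc3b (0.25), Fkbp8 (0.19) and Gabarap (0.18). None of 22 respiratory chain genes was called in either arm, with medians of 0.23 and 0.30.

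**Figure D3:**
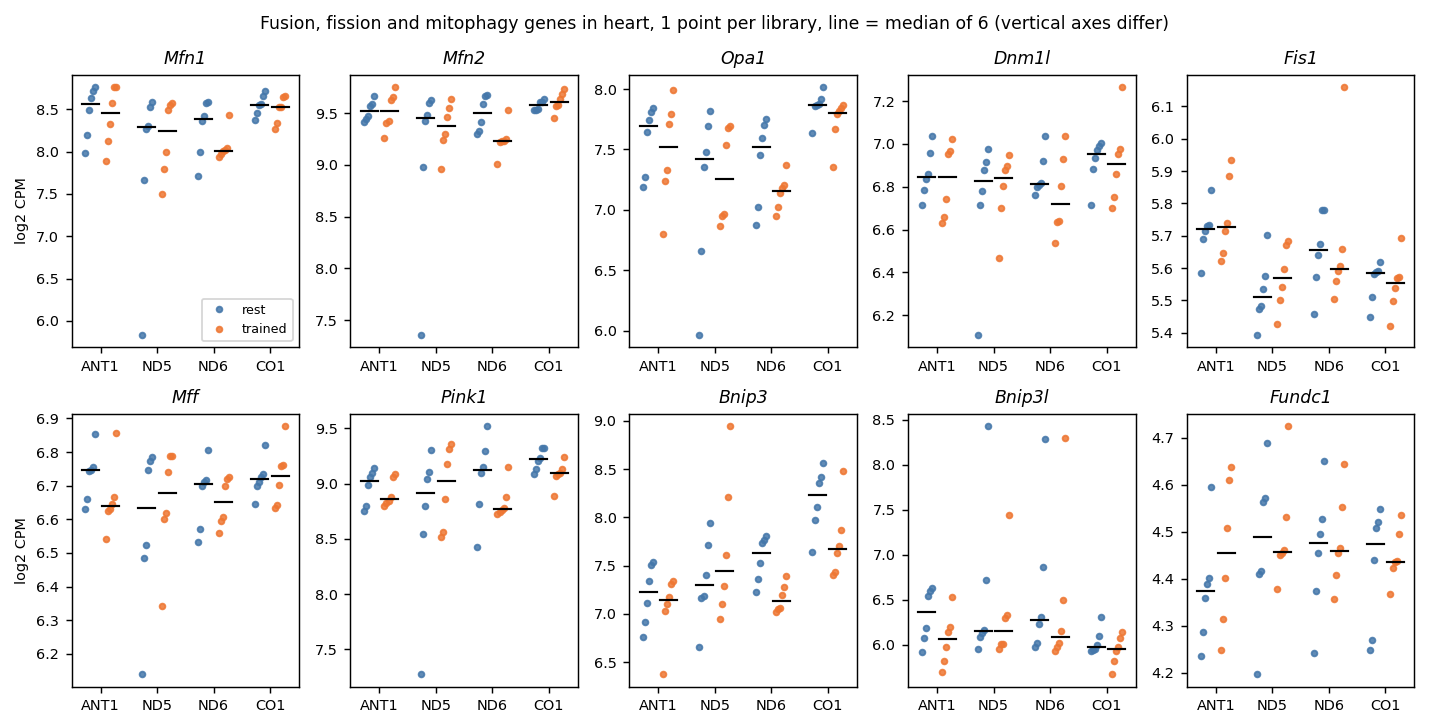
Log2 CPM of each member in the 48 heart libraries, laid out as in the soleus plot, with a line at the median of 6. A few single hearts stand far from their group: the ND5 heart of B80 at 56.9 CPM of Mfn1, and hearts of ND5 and ND6 with up to 345 CPM of Bnip3l.

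Whether the ANT1 difference itself depended on tissue was tested over both tissues in non-exercised mice, where 11.1% of 16172 genes were called. No member passed by edgeR or DESeq2. By edgeR 4 of 10 members and 4072 of the 16172 genes had an unadjusted p under 0.05. Mfn1 came closest, with its ANT1 difference 0.48 higher in soleus than in heart (adjusted p = 0.15). It passed without the heart of B80 (0.54, adjusted p = 0.026), without the 4 hearts rich in red cell RNA (0.56, adjusted p = 0.018) and with low-atrial hearts only (0.56, adjusted p = 0.0042).

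Between the mtDNA strains, Pink1 and Bnip3l were called in soleus and Bnip3 in heart, in 1 comparison each. In non-exercised soleus these 2 members were lower in ND5 than in ND6, a count near the background of 14.5% of genes called. Pink1 measured 480, 701 and 865 CPM in ND5 and 710, 846 and 1063 CPM in ND6, with overlap, a difference of -0.34 (SE 0.12, adjusted p = 0.043). Bnip3l measured 43.8, 49.5 and 52.2 CPM against 49.5, 57.3 and 62.4 CPM, a difference of -0.23 (SE 0.061, adjusted p = 0.011). With the fibroblast covariate the differences were -0.01 for Pink1 and -0.23 for Bnip3l, and neither was called (adjusted p = 0.99 and 0.77). Pink1 also lost its call without the filter on low counts (adjusted p = 0.0563), in the non-exercised libraries alone (adjusted p = 0.0716) and with a fast fibre covariate (adjusted p = 0.0887), and both lost it on the FPKM scale (-0.18 and -0.08). ND5 soleus held 742 to 3270 CPM of fibroblast markers and ND6 soleus 323 to 745 CPM. No gene was called between ND5 and CO1 or between ND6 and CO1 in non-exercised soleus, nor between any pair in exercised soleus.

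In non-exercised hearts Bnip3 was lower in ND5 than in CO1, at 101, 157 and 247 CPM against 199, 302 and 377 CPM. These ranges overlapped. The difference was -0.80 (SE 0.24, adjusted p = 0.028), where 11.2% of genes were called. The call ended without the heart of B80 (-0.70, adjusted p = 0.19) and among low-atrial hearts (-0.37, 2 ND5 hearts). It also ended without the 4 hearts rich in red cell RNA (-0.70, adjusted p = 0.19), with the atrial covariate (-0.65, adjusted p = 0.085), with the red cell covariate (-0.62, adjusted p = 0.34) and on the FPKM scale (-0.56, adjusted p = 0.079). No gene was called between ND6 and either other strain in these hearts. In exercised hearts 0.566% of genes and 0 members were called between ND6 and CO1, and no gene between the other pairs.

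With all libraries of a tissue in the fit, training left no member, and no gene, called by edgeR in either tissue. The low-atrial hearts alone left 1 exercised ND6 heart, so this is not stated for them. In soleus the mean of the 4 strains' exercised minus non-exercised differences ran from 0.01 (Bnip3l) to 0.08 (Mfn1), and the 95% intervals stayed between -0.08 and 0.19 for all 10 members. In heart they ran from -0.23 (Bnip3l) to 0.04 (Fundc1), within -0.61 and 0.18. At an unadjusted p under 0.05 there were 0 members in both tissues and 536 and 538 genes. DESeq2 called 0 members, with 0 genes in soleus and 1 in heart. A shift of 1.53-fold, the size of the Mfn1 strain difference, lies outside the soleus intervals of all members.

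No gene passed the test of a difference in training effect between strains either, with 984 genes in soleus and 644 in heart at an unadjusted p under 0.05. Bnip3 in heart had the smallest unadjusted p of the members, 0.042. Its medians went from 157 to 176 CPM in ND5, from 198 to 140 CPM in ND6, from 302 to 204 CPM in CO1 and from 150 to 141 CPM in ANT1, with the highest exercised ND5 heart at 492 CPM. Low-atrial hearts went from 4 to 1 in ND6 and from 6 to 5 in CO1, and stayed at 2 in ND5.

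Exercised soleus libraries also carry a response class in the labels. The 12 responders were compared with the 12 non-responders, 3 of each per strain. No member and no gene was called, by edgeR or, for the members, by DESeq2. Differences ran from -0.07 (Bnip3l) to 0.09 (Mfn1), and the 95% intervals stayed within -0.17 and 0.25.

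Soleus and heart differed in 7 members, against 86.8% of all genes tested. Of these, 6 were higher in soleus on the joint count scale and 1 was lower. Bnip3 measured 405, 608 and 770 CPM over 48 soleus libraries and 76.5, 158 and 462 CPM over 48 hearts, and 46 soleus libraries were above the highest heart. It was 3.41-fold higher in soleus (log2 difference 1.77, SE 0.067, adjusted p = 4.85e-41). Pink1 measured 499, 907 and 1173 CPM against 145, 498 and 677 CPM, with 43 soleus libraries above every heart, and was 1.86-fold higher (adjusted p = 3.36e-26). Fis1 measured 57.3, 70.9 and 100 CPM against 39.3, 45.0 and 63.6 CPM, with 41 above, and was 1.58-fold higher (adjusted p = 4.0e-41).

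Smaller tissue differences were found for Mfn1 (0.28, adjusted p = 0.000128), Fundc1 (0.14, adjusted p = 1.94e-05) and Dnm1l (0.07, adjusted p = 0.038). The Dnm1l call was present in only 2 of 9 alternatives. With low-atrial hearts only, the Mfn1 difference was 0.10 (adjusted p = 0.040), and without the filter on low counts that of Fundc1 was 0.09 (adjusted p = 0.0106). Bnip3l was the member lower in soleus, at 46.1, 58.6 and 68.8 CPM against 47.3, 63.5 and 322 CPM, by -0.48 (SE 0.10, adjusted p = 1.01e-05). The highest 15 hearts were above every soleus library. Without the 4 hearts rich in red cell RNA the difference was -0.22 (adjusted p = 7.78e-07). Mfn2 (0.01), Opa1 (-0.07) and Mff (0.03) were not called. A fit with the mouse as a block, for the 19 mouse codes found in both tissues, also called 7 members.

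Within groups, the fusion genes were positively related to each other in soleus. Deviations from the group mean were correlated over the 48 libraries of a tissue, with 270 relations in all. Permutation p-values came from 100000 permutations within groups, whose smallest possible p is 1e-05. Of the 270 relations of both tissues, 177 had a permutation p under 0.05 for r, and 171 after adjustment. Mfn2 and Opa1 had Pearson's r of 0.909 and Spearman's rho of 0.868 (permutation p = 1e-05, adjusted p = 5e-05 for r), and r was 0.874 without ANT1 mice A81 and A82, the libraries farthest from the centre. Mfn1 followed Mfn2 (r = 0.875, rho = 0.846) and Opa1 (r = 0.848, rho = 0.854), with the same permutation p, and r was 0.871 and 0.840 without A81 and A82. Opa1 and Dnm1l, of opposite roles in the network, were positively related (r = 0.758, rho = 0.705, permutation p = 1e-05), and r was 0.662 without A81 and A82.

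Fis1 was negatively related to Opa1 (r = -0.58, rho = -0.54, permutation p = 0.0001, adjusted p = 0.00034), and r was -0.45 without A81 and A82. Mouse A82 held the lowest Mfn2 and Opa1 of its group. Libraries share their RNA preparation and composition: Mfn1 was negatively related to the summed fibroblast markers (r = -0.686, rho = -0.62, permutation p = 2e-05, adjusted p = 9e-05) and Pink1 likewise (r = -0.701, rho = -0.667, permutation p = 1e-05), and r was -0.607 and -0.657 without the 2 farthest libraries. The part of composition in the relations among members was not tested.

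**Figure D4:**
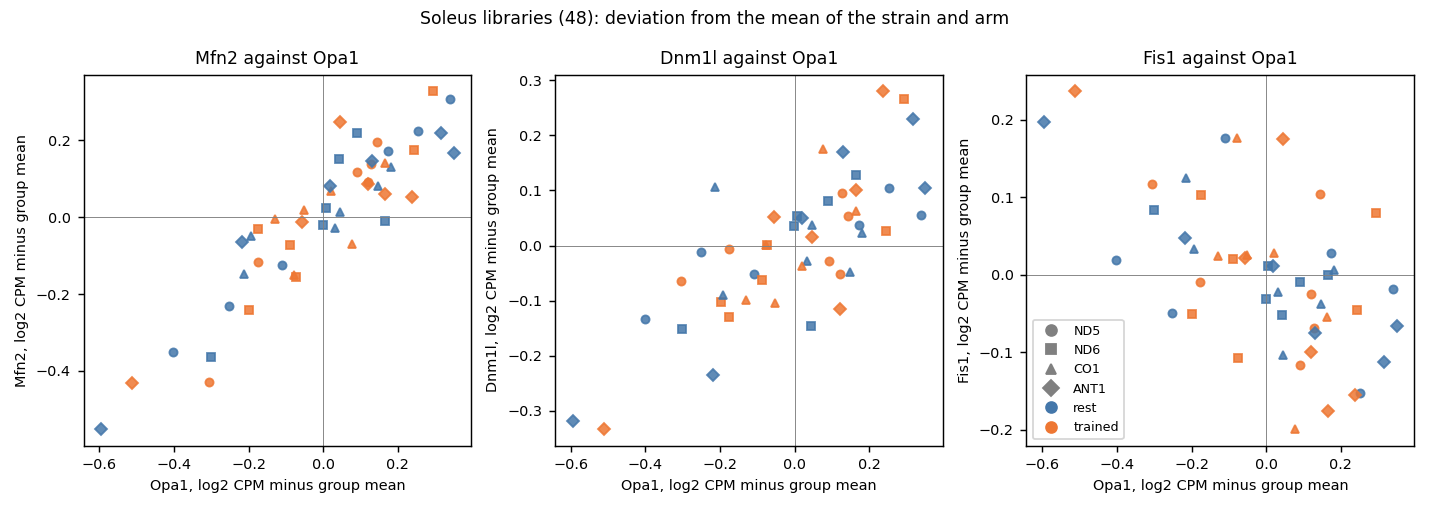
Deviation from the group mean (log2 CPM) of Mfn2, Dnm1l and Fis1 against that of Opa1 in the 48 soleus libraries. Non-exercised libraries are blue and exercised orange, and the marker shape gives the strain. Mfn2 and Dnm1l climb with Opa1 (r = 0.909 and 0.758) and Fis1 descends (r = -0.58), with ANT1 mice A81 and A82 at the low end of Opa1.

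In hearts several members varied with the tissue composition. As the hearts form a low-atrial and a high-atrial set, of 26 and 22 hearts, relations were computed within each, again 270 in all (124 with a permutation p under 0.05 for r, 83 after adjustment). Bnip3l, the receptor that clears mitochondria from red cell precursors, followed the summed red cell markers in both. In low-atrial hearts r was 0.881 and rho 0.874 (permutation p = 4e-05 for both, adjusted p = 0.0018), and r was 0.823 without the 2 farthest hearts. In the others r was 0.935 and rho 0.970 (permutation p = 2e-05 for both, adjusted p = 0.00135), and r was 0.920 without the 2 farthest. The 4 hearts richest in red cell RNA had 173 to 345 CPM of Bnip3l and the other 44 had 50.8 to 116 CPM, sets without overlap that were chosen on red cell markers.

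Mfn1, Opa1, Dnm1l, Mff and Mfn2 followed the summed cardiac muscle markers in both sets, each with an adjusted permutation p under 0.05 for r. In low-atrial hearts and in the others r was 0.813 and 0.963 for Mfn1 and 0.584 and 0.861 for Opa1. For Dnm1l it was 0.784 and 0.810, and for Mff 0.626 and 0.770. Mfn2 is described here in full. In low-atrial hearts r was 0.758 and rho 0.731 (permutation p = 0.00072 and 0.00081, adjusted p = 0.0075 for r), and r was 0.696 without the 2 farthest hearts. In the others r was 0.982 and rho 0.850 (permutation p = 8e-05 and 0.00064, adjusted p = 0.0024 for r), and r was 0.905 without 2 hearts, that of B80 among them. Mfn1 and Opa1 were positively related in both sets, with r = 0.774 (rho = 0.708, permutation p = 0.00024, adjusted p = 0.0038) and r = 0.932 (rho = 0.858, permutation p = 2e-05, adjusted p = 0.00135). Without the 2 farthest hearts r was 0.698 and 0.878.

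Mfn1 and Pink1 passed in 1 set. They had r = 0.044 in low-atrial hearts (rho = 0.145, permutation p = 0.85, adjusted p = 0.91) and r = 0.922 in the others (rho = 0.834, permutation p = 0.00088, adjusted p = 0.0079), which was 0.767 without the 2 farthest hearts. Opa1 and Fis1 passed in neither set after adjustment. They had r = -0.58 in low-atrial hearts (rho = -0.60, permutation p = 0.016, adjusted p = 0.0503), which was -0.49 without the 2 farthest hearts, and r = 0.16 in the others (rho = 0.284, permutation p = 0.42, adjusted p = 0.52). The difference between the sets was not tested. Opa1 measured 145, 219 and 259 CPM in low-atrial hearts and 62.3, 143 and 224 CPM in the others, and Pink1 422, 563 and 734 CPM against 155, 446 and 636 CPM. Fis1 had the same median, 48.3 CPM, in both sets. Within the sets Opa1 was not related to the summed atrial markers (r = 0.035 and -0.32, permutation p = 0.90 and 0.25).

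**Figure D5:**
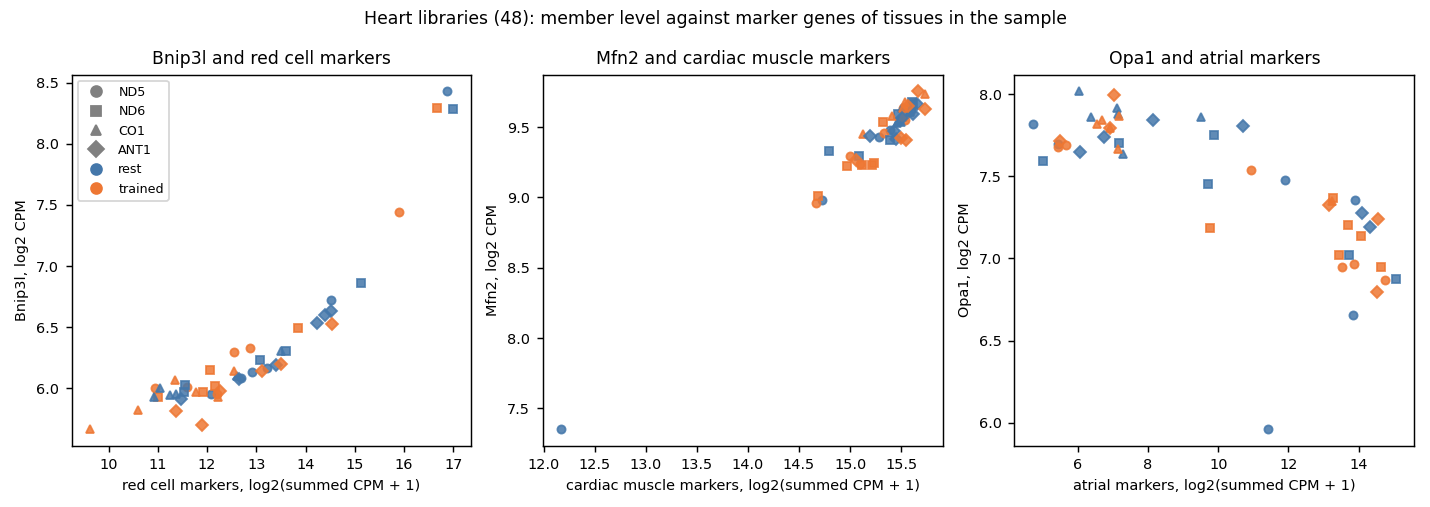
Bnip3l against summed red cell markers, Mfn2 against summed cardiac muscle markers and Opa1 against summed atrial markers in the 48 hearts, members in log2 CPM and markers as log2 of summed CPM plus 1. Bnip3l climbs with red cell markers, Mfn2 with cardiac muscle markers, where the heart of B80 lies apart at 4608 CPM, and the median of Opa1 is 219 CPM in the low-atrial set and 143 CPM in the others.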

How the data were processed

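RNA enriched with oligo(dT) was sequenced in soleus and heart, per the labels' protocols. The authors deposited expected counts and FPKM values per gene. Their processing notes (the submitters' processing notes) name the tools STAR, version 2.5.2b, and RSEM, version 1.2.28, with build mm10. Columns were tied to samples by mouse code. No sample title fitted 24 columns of counts (48 columns with those of FPKM), and these columns stayed out, the control strain with them. The labels name separate mice, but p-values measure only the spread between these libraries.

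Deposited expected counts were rounded, filtered with filterByExpr by group (13935 genes kept in soleus, 15723 in heart, 16172 over both, 13843 for response), scaled by TMM and tested with the quasi-likelihood test of edgeR 4.0.16 (R 4.3.3). All libraries of a tissue entered a fit with a mean per group, and adjusted p is Benjamini and Hochberg's over all genes of a comparison. Calls required an adjusted p under 0.05. A 95% interval is the difference ± 1.96 SE. CPM are scaled to TMM library sizes, and log2 CPM used a prior count of 2. The deposited FPKM were analysed as log2(FPKM + 0.1) with limma 3.58.1, where fold changes of low genes are understated. DESeq2 1.42.0 was an alternative. Scripts were tested on simulated data.

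The members and the gene and marker lists were chosen with earlier results of these data known. All 10 members are named, and of the wider list the 3 called genes with the smallest p in each role. Of 120 pairs of libraries of a group compared in each tissue, 0 were identical. By mouse codes, 19 mice have both tissues. Deviations of 18 such pairs, compared over 13555 genes, correlated with a median r of 0.0635, from -0.296 to 0.326. A code shared by both tissues marks the same mouse in the labels, except that B80 carries opposite training labels.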

Additional observations from a re-analysis of the deposited data

Results flagged for a closer look

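In 14 of 160 groups of 6 libraries a single value of a member stood apart from its group by Dixon's criterion, 8.75% of groups where chance gives about 1 in 20. These values came from 10 libraries and are given as log2 CPM with the nearest other library. The non-exercised ND5 heart of mouse B80 was low in Mfn1 (5.83, nearest 7.66), Mfn2 (7.36, nearest 8.98) and Dnm1l (6.11, nearest 6.72) and high in Bnip3l (8.43, nearest 6.72). Exercised hearts high in Bnip3l were ND5 mouse B71 (7.44, nearest 6.33) and ND6 mouse I63 (8.30, nearest 6.49). All 3 belong to the 4 hearts with the most red cell marker RNA.

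Exercised ND6 hearts held 3 other such values: mouse I4 was high in Fis1 (6.16, nearest 5.66) and in Pink1 (9.15, nearest 8.88), and mouse I50 was high in Mfn1 (8.44, nearest 8.04). The exercised ANT1 heart of mouse A71 was low in Bnip3 (6.37, nearest 7.03). In soleus, non-exercised ANT1 mouse A82 was low in Mfn2 (8.83, nearest 9.32) and non-exercised ND6 mouse I85 was low in Opa1 (6.91, nearest 7.21). Fundc1 was low in exercised ANT1 mouse A81 (4.15, nearest 4.46) and in exercised CO1 mouse E50 (4.21, nearest 4.41).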

How the results depend on the processing

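Alternatives were DESeq2, another scaling (RLE), no filter on low counts, removal of mtDNA-encoded genes, FPKM, a fit on the compared arm alone, left-out libraries and marker covariates. The fibroblast and red cell covariates, the 2 subsets of hearts and the fit without a block of mice were chosen after the data were seen. Of the counts of members called, 170 stayed on their side, 12 grew, 11 shrank and 0 reversed. Of single members 150 kept their call, 30 lost it and 9 reversed. On the FPKM scale, with limma, 9 members were called in exercised soleus, 3 in non-exercised heart and 3 in exercised heart. Those fits called 10810, 1333 and 1798 genes. The reversed FPKM differences were -0.033 (Mfn1), -0.44 (Mfn2), -0.47 (Opa1), -0.40 (Dnm1l) and -0.37 (Fis1) in non-exercised soleus and -0.31 (Opa1), -0.27 (Dnm1l) and -0.28 (Fis1) in exercised soleus. Mfn2 also reversed with the fibroblast covariate (-0.037). In exercised hearts 1 member was called with the atrial covariate and 1 with the red cell covariate, and leaving out single libraries gave 0 to 1. For exercised low-atrial hearts, with 1 ND6 heart, only the differences are given above. Between mtDNA strains in non-exercised soleus the count of 2 became 5 by DESeq2, 1 without a filter, 1 in the compared arm alone, 1 with a fast fibre covariate, 0 on FPKM and 0 with the fibroblast covariate. In non-exercised heart the count of 1 became 2 by DESeq2 and 0 on FPKM, without B80, without the 4 hearts rich in red cell RNA, in low-atrial hearts and with either covariate. The tissue difference of ANT1 gave 1 member without B80, 1 without the 4 hearts and 1 in low-atrial hearts. With the mouse as replicate block (limma voom, consensus correlation 0.0586) the paired fit called 0 members for the tissue difference of ANT1 and 7 between tissues, and the pairing changed no other call. Except where a smaller set of samples was fitted, the cause of these changes was not tested. Depth limits Fundc1 most, the member with the lowest counts.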
